A study of Mus musculus with 2 samples.

Results

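Kinesins are motor proteins that turn ATP hydrolysis into movement along microtubules. One class builds the mitotic spindle, moves chromosomes and completes cytokinesis, and its genes are switched on as cells approach division. Another class carries vesicles, organelles and ciliary components through cells that are not dividing, and further members steer microtubule dynamics or the primary cilium. Their transcripts were compared between p65-null and p65 wild-type mouse embryonic fibroblasts (MEFs), cells cultured from the embryo body. The Rela gene encodes p65, one of the DNA-binding subunits of the transcription factor NF-kB, which drives inflammatory and survival genes.

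Members were all genes whose mouse symbol is Kif followed by a number, after the RefSeq transcripts of the table had been given symbols. The rule found 36 of 16881 transcripts, of which 35 encode motors and 1, Kif16bos, is a non-coding RNA from the strand opposite Kif16b. By their textbook roles, 11 motor genes were classed as mitotic, 13 as transport and 11 as other. Of the motor genes, 28 reached a mean of 1 CPM (fragments normalised to library size by the TMM method) over both libraries and are called measured, out of 12102 measured genes in the table. Kif2b, Kif12 and Kif28 were not analysed here.

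Total RNA had been sequenced from 1 culture of p65-/- and 1 culture of p65+/+ MEFs, both immortalised and of the C57BL/6 strain, with no treatment named in the labels. The p65-null library held 15441394 fragments and the wild-type library 20794476. With 1 library per genotype there is no replicate check and no p-value, and the 95% intervals below cover counting error only. Every ratio has p65-null on top, and genotype cannot be told apart from any other difference between the 2 cultures. The labels do not say how the cells were immortalised or which exons the null allele lacks.

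The targeted gene, Rela, had 13.1 CPM in the p65-null library and 90.5 CPM in the wild-type library, 6.90-fold lower (5.96 to 8.03). Fibroblast markers were all measured (10 of 10), with summed levels of 24752 and 12114 CPM. The epithelial markers, 1 of 7 measured, summed to 51.1 CPM in p65-null, mostly Krt19, and 16.8 CPM in wild-type cells, while Epcam had 1 and 0 fragments. Endothelial markers, 1 of 7 measured, summed to 2.31 CPM in p65-null and 3.40 CPM in wild-type cells, macrophage markers, 3 of 7 measured, to 9.51 and 20.6 CPM, and skeletal muscle markers, 0 of 7 measured, to 1.78 and 0.849 CPM. Ptprc, which marks all leukocytes, had 0 fragments in p65-null and 2 in wild-type cells. The cultures also differed in sex-linked genes. The RNA of the inactive X chromosome, Xist, had 2 fragments in p65-null and 956 in wild-type cells, and Kdm5d on the Y chromosome had 207 and 0. Cdkn2a, which encodes cell cycle inhibitors, had 3 and 1693.5 fragments. The part of these differences in the kinesin values was not tested.

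Most measured kinesin genes lay within 2-fold, as did most of all measured genes. Whether the kinesin shares past 2-fold departed from those of all measured genes was not tested. Lower by 2-fold or more in p65-null cells were 4 of 28 measured kinesins, or 14.3%, against 13.7% of all measured genes. At least 2-fold higher were 2 of 28, or 7.14%, against 12.2% of all measured genes, and 22 lay within 2-fold. Counting only genes whose whole interval lay past 2-fold gave 4 kinesins lower, against 9.08% of all measured genes, and 1 higher, Kif26b, against 7.97%. Libraries scaled to ribosomal protein genes gave 10 lower, when 25.3% of all genes were. That scaling moved all log2 ratios by -0.42 and put the medians of transport kinesins (-0.29), kinesin partners (-0.35), dynein and dynactin (-0.37) and DNA replication genes (-0.32) below 0, where they were above it as counted. Without an expression minimum 6 were higher, against 16.3% of all genes, and with a minimum of 5 CPM 1 was, against 9.1%. The lower ones by the first count were the mitotic Kif18a and Kif20b and the cargo motors Kif5b and Kif5c, and the higher ones were Kif26b and Kif5a. Over the family the log2 ratio had a median of -0.31, against -0.03 over all measured genes. Summed over all 35 motor genes, kinesin transcripts made up 1414 CPM in p65-null cells and 1917 CPM in wild-type cells, 1.36-fold lower (1.33 to 1.38). Mitotic kinesins gave 46.9% of that sum in p65-null and 52.9% in wild-type cells.

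Levels per length of transcript spanned a wide range. Kif20a was the highest in both libraries, at 44.3 CPM per kb in p65-null and 80.5 CPM per kb in wild-type cells, followed by Kif1c at 36.7 and 42.6 CPM per kb and Kif2c at 31.3 and 38.0 CPM per kb. Kif5b ranked 10 among the 36 members in p65-null cells, at 9.0 CPM per kb, and 4 in wild-type cells, at 31.9 CPM per kb. At the low end of the measured members, Kif5a had 0.357 CPM per kb in p65-null and 0.127 CPM per kb in wild-type cells.

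**Figure D1:**
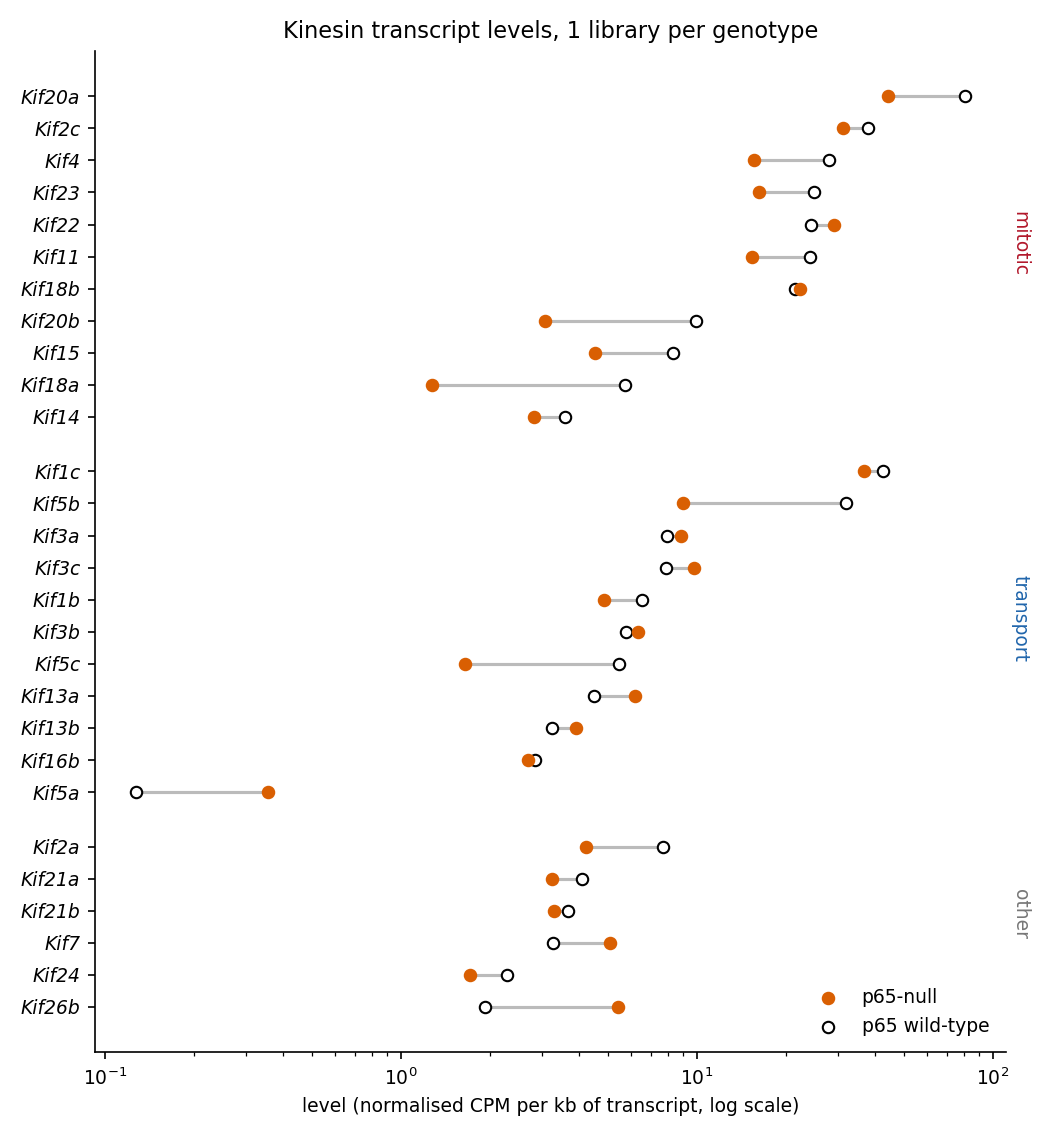
Level of each of the 28 measured kinesin genes, in normalised CPM per kb of transcript on a log axis, in the p65-null library (filled) and the wild-type library (open), grouped as mitotic, transport and other. The gap between the points of a gene is widest for Kif18a, at 1.27 CPM per kb in p65-null and 5.73 CPM per kb in wild-type cells, and the points of Kif18b and Kif16b nearly coincide.

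Mitotic kinesins were mostly lower in the p65-null library. Of 11 members, all measured, 9 had a log2 ratio below 0, where 51.2% of all measured genes did. Past 2-fold, 2 were lower and 0 higher, against 13.7% lower and 12.2% higher of all measured genes. The median log2 ratio of the mitotic kinesins was -0.66, and their summed level was 663 CPM in p65-null and 1014 CPM in wild-type cells, 1.53-fold lower (1.49 to 1.57). In RNA from whole cultures, fewer dividing cells and less RNA per dividing cell cannot be told apart. After a correction for the GC content and length of the transcript (described with the comparison of classes) the median was -0.41, against -0.09 for all measured genes. The 2 members above 0, Kif22 and Kif18b, lay below 0 after that correction, and Kif11 and Kif14 lay above it.

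Among motors of the bipolar spindle, Kif11 (Eg5), which slides antiparallel microtubules apart, had 73.9 CPM in p65-null and 116 CPM in wild-type cells. Its log2 ratio was -0.66 (-0.76 to -0.55), but 0.06 after the correction. Kif15, which can take over part of the work of Kif11, had 22.0 and 40.5 CPM, a log2 ratio of -0.88 (-1.07 to -0.70) and -0.24 after the correction. Both were thus lower in the p65-null library as counted, and neither was 2-fold apart.

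Motors that act on chromosomes and microtubule ends covered the whole span of the class. Kif18a, which damps chromosome oscillations at metaphase (chromosome 2, 109280738 to 109341749), had 4.29 CPM in p65-null and 19.3 CPM in wild-type cells. That is 4.50-fold lower (3.46 to 5.94), on 65 and 409.5 fragments, and the log2 ratio of -2.17 became -1.16 after the correction. Its relative Kif18b, which shortens astral microtubules, had 74.4 and 71.7 CPM and a log2 ratio of 0.05 (-0.06 to 0.17), so the counting intervals of the kinesin-8 pair did not overlap. After the correction Kif18b had -0.32, nearer to Kif18a. Kif2c (MCAK), which takes microtubules apart at their ends and corrects faulty attachments, had 89.0 CPM in p65-null and 108 CPM in wild-type cells, a log2 ratio of -0.28 (-0.38 to -0.18). The chromokinesins, which bind chromosome arms, were also unlike each other. Kif4 on the X chromosome had 77.5 and 139 CPM and a log2 ratio of -0.84 (-0.94 to -0.75), and Kif22 (Kid) had 61.7 and 51.4 CPM and a log2 ratio of 0.26 (0.14 to 0.39). Scaled to ribosomal protein genes, Kif22 and Kif18b had -0.16 and -0.37. Pseudogenes of both chromokinesins exist in the mouse, and since the handling of reads from near-identical copies is unknown, these values are uncertain.

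The motors of the central spindle and cytokinesis were all on the lower side as counted. Kif20b (chromosome 19, 34922335 to 34975750), a kinesin-6 that acts late in abscission, had 17.1 CPM in p65-null and 55.2 CPM in wild-type cells. It was 3.24-fold lower (2.83 to 3.72), on 258.5 and 1170.5 fragments, and 1.56-fold lower after the correction. Kif20a (MKLP2), which brings the chromosomal passenger complex to the central spindle, had 163 and 296 CPM and was 1.82-fold lower (1.73 to 1.90), almost unmoved by the correction at 1.80-fold. Kif23 (MKLP1), the motor of the centralspindlin complex, had 55.3 CPM in p65-null and 84.4 CPM in wild-type cells, a log2 ratio of -0.61 (-0.73 to -0.49). Together the 3 kinesin-6 genes had 235 and 436 CPM and were 1.85-fold lower (1.78 to 1.93). Kif14, which recruits citron kinase to the midbody, had 25.3 and 32.0 CPM and a log2 ratio of -0.34 (-0.53 to -0.16), or 0.02 after the correction. Exons of Kif20a overlap those of Cdc23 on the other strand by up to 977 bases and exons of Kif4 overlap those of Pdzd11 by up to 683 bases. The sources do not say if strand was used in counting, and without it reads in these stretches cannot be told apart between the partners. Cdc23 had 79.4 CPM in p65-null and 133 CPM in wild-type cells, and Pdzd11 had 58.79 and 55.55 CPM.

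Kinesins whose symbols fall outside the naming rule were looked up as well, among them mitotic motors. Cenpe, a kinetochore kinesin that brings chromosomes to the spindle equator, had 51.0 CPM in p65-null and 105 CPM in wild-type cells, 2.05-fold lower (1.89 to 2.23), with a log2 ratio of -0.32 after the correction. Kifc1, which focuses spindle poles by moving to microtubule minus ends, had 67.8 and 60.8 CPM and a log2 ratio of 0.16 (0.04 to 0.28), or -0.40 after the correction. Of the 5 kinesin genes looked up outside the naming rule, 4 were measured, and their values are not a summary of mitotic motors. Their median log2 ratio was -0.07 with 2 below 0 as counted, and -0.40 with 4 below 0 after the correction. Over all measured genes the medians were -0.03 and -0.09, and 51.2% lay below 0 as counted.

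Genes of late cell cycle phases typically carry a cell cycle genes homology region (CHR, TTTGAA) close to the start of transcription, through which the DREAM and MYB-MuvB complexes turn them off and on, often beside CCAAT boxes (CCAAT) bound by NF-Y. The start regions of some mitotic kinesins are printed to show this feature, which the choice of members did not use, beside a transport kinesin and Kif26b. Sequences are from RefSeq (GRCm38.p6), on the gene's strand, from 80 bases before to 30 after the start, and capitals mark CHR and CCAAT matches, read as TTCAAA and ATTGG where they lie on the other strand. Of the mitotic kinesins that are available but not printed, Kif23 holds both motifs in this stretch, and Kif14 and Kif2c hold neither. The Kif11 stretch is chr19:37376302-37376411 on the plus strand, that of Kif15 chr9:122951001-122951110 on the plus strand, that of Kif20b chr19:34922278-34922387 on the plus strand, that of Kif18b chr11:102925095-102925204 on the minus strand and that of Kif22 chr7:127042391-127042500 on the minus strand. The others are chrX:100625985-100626094 on the plus strand for Kif4, chr2:109280658-109280767 on the plus strand for Kif18a, chr2:49619206-49619315 on the plus strand for Kif5c and chr1:178529045-178529154 on the plus strand for Kif26b.
Kif11: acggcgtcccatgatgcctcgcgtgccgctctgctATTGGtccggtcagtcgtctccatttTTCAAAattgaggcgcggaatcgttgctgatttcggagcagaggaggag
Kif15: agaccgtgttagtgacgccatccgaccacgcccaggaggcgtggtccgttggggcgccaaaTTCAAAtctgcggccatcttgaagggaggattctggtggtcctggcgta
Kif20b: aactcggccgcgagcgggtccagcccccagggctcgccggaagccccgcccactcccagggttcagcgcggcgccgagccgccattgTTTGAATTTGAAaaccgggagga
Kif4: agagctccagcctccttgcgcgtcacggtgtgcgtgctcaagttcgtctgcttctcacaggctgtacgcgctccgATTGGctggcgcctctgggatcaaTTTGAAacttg
Kif18b: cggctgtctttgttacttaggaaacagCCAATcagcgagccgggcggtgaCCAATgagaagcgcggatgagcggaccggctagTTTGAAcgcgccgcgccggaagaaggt
Kif22: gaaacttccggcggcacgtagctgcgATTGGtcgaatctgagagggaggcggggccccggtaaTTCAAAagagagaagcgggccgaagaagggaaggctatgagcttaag
Kif18a: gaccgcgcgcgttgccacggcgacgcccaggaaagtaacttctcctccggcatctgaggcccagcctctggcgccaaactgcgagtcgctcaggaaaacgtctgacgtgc
Kif5c: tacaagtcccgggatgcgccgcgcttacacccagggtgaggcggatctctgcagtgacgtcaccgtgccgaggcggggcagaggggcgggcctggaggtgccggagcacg
Kif26b: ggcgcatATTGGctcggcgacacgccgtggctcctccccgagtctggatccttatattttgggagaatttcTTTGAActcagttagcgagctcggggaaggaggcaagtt

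RefSeq windows from 250 bases before to 50 after the start were available for 29 of the 35 motor genes. A CHR match on either strand was found for 9 of 10 mitotic kinesins and 1 of 10 transport kinesins (Kif1a), against 20.2% of 27025 genes with a window of 300 bases. The windows with the matches of Kif14, Kif2c and Kif1a lie inside the gene, away from its outer start. The Kif14 window begins at 136467598 and the gene at 136466301. On the minus strand, the Kif2c window ends at 117179022 and the gene at 117182624. This Kif1a window ends at 93082730 and the gene at 93102039, and the Kif1a window near the outer start held no CHR match. Whether these matches, and the CCAAT match of Kif14, lie in promoters was not tested. In 7 of the mitotic kinesins a CHR match began within 30 bases of the start, from position -19 to position 20, as it did for 3.66% of all genes. CCAAT was present for 6 of 10 mitotic and 3 of 10 transport kinesins, against 41.1% of all genes, and both motifs together for 6 and 0, against 7.97%. Letters of an E2F site (TTTCCCGC or TTTGGCGC) were found for 2 mitotic kinesins, Kif15 and Kif18a, and 0 transport kinesins, against 1.80% of all genes. In Kif15 the E2F letters begin 8 bases before those of the CHR. The NF-kB consensus had 1 match among mitotic kinesins, in Kif23, and 0 among transport kinesins, against 9.55% of all genes.

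Of the measured mitotic kinesins with a window, 9 had a CHR match and 1 had none. Whether ratios differ with a match therefore cannot be judged within the class. The 9 with a match ran from a log2 ratio of -1.69 for Kif20b, which holds a pair of matches side by side after the start, to 0.26 for Kif22. Kif18a, with the lowest ratio of the class, had no match in its window. Among the others, Kif26b had a CHR and a CCAAT match and was higher in the p65-null library. Such matches describe the letters of these windows and say nothing of binding.

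**Figure D2:**
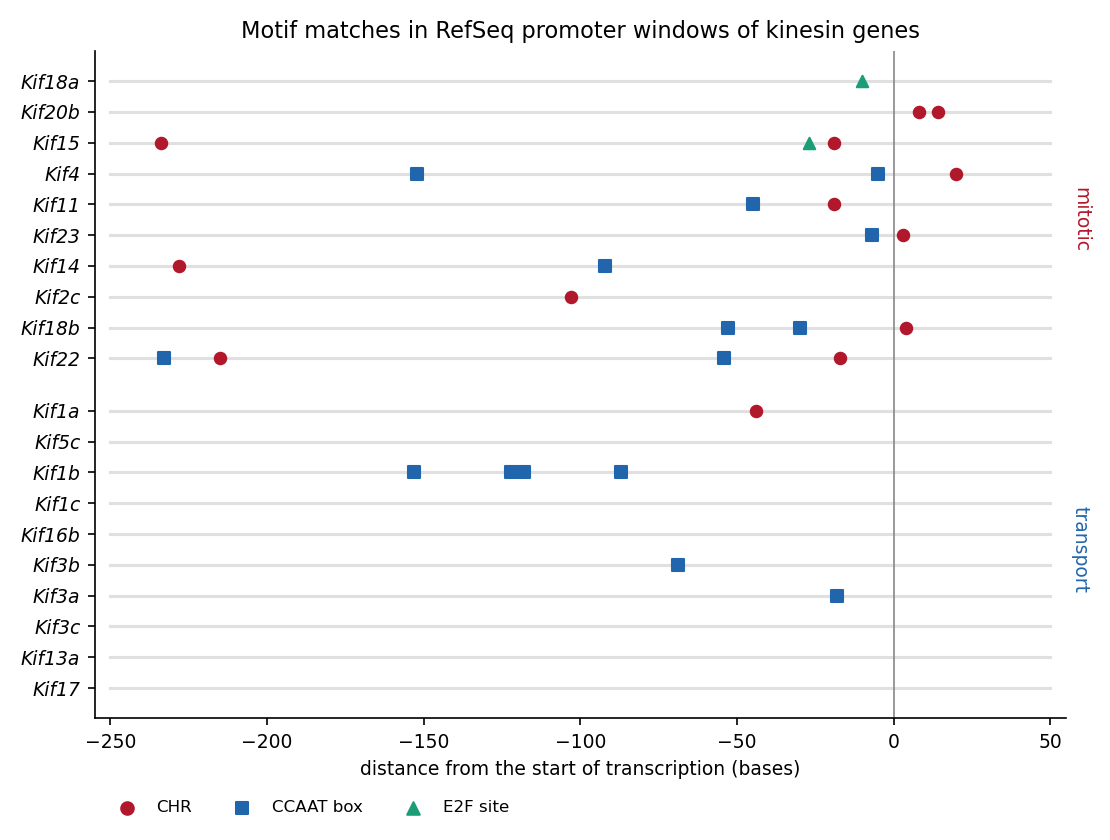
Positions of CHR, CCAAT and E2F matches relative to the start of transcription, in bases, in the windows of 10 mitotic and 10 transport kinesin genes, ordered within each class by log2 ratio. CHR matches lie near the start in 7 mitotic genes, whereas the single transport gene with one is Kif1a, in a window inside the gene. The windows of Kif14 and Kif2c also lie inside the gene. Kif1a and Kif1b have a pair of windows each drawn on 1 line, so matches of Kif1b appear once per window.

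Transport kinesins had no common direction. Of 13 members 11 were measured: Kif5b and Kif5c lay past 2-fold on the lower side, Kif5a on the higher side and 8 in between, with 5 below and 6 above 0. Of all measured genes, 13.7% were at least 2-fold lower and 12.2% at least 2-fold higher. The median log2 ratio of the transport kinesins was 0.13, or 0.19 after the GC and length correction. Their summed level was 575 CPM in p65-null and 761 CPM in wild-type cells, 1.32-fold lower (1.29 to 1.36), while without Kif5b and Kif5c it was 509 and 532 CPM, a log2 ratio of -0.06 (-0.10 to -0.02). The median and the sum thus lay on opposite sides of 0, and the sum rested on the kinesin-1 genes.

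Kinesin-1, the founding family, moves mitochondria, lysosomes and vesicles outwards as a pair of heavy chains with a pair of light chains. Kif5b, the heavy chain found in most cell types, had 54.3 CPM in p65-null and 192 CPM in wild-type cells. It was 3.54-fold lower (3.29 to 3.82), on 822 and 4074 fragments, and 1.87-fold lower after the correction. Exons of Kif5b overlap AC113003.1 and Gm17036 on the other strand by up to 182 and 85 bases. Kif5c (chromosome 2, 49619286 to 49774778), best known from neurons, had 11.3 and 37.4 CPM and was 3.31-fold lower (2.80 to 3.93), or 2.78-fold lower after the correction. Kif5a, the neuronal heavy chain, went the other way at 2.24 CPM in p65-null and 0.802 CPM in wild-type cells, 2.80-fold higher (1.52 to 5.34), on only 34 and 17 fragments. With Kif5a adding little, the 3 heavy chains together had 67.8 and 230.4 CPM and were 3.40-fold lower (3.18 to 3.64). Neuron markers summed to 45.6 CPM in p65-null and 90.1 CPM in wild-type cells, 3 of 7 in the table being measured, with Tubb3 at 26.4 and 76.4 CPM and Nefl at 2 fragments in each. The part of that difference in the Kif5c and Kif5a values was not tested.

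As counted, the light chains of kinesin-1 did not share the lower ratio of Kif5b and Kif5c. Klc1 had 107 CPM in p65-null and 128 CPM in wild-type cells, a log2 ratio of -0.26 (-0.35 to -0.17), and Klc2 had 31.8 and 31.2 CPM, a log2 ratio of 0.03. Klc4 had 13.1 and 8.42 CPM, and Klc3 had 19.6 and 8.37 CPM, 2.35-fold higher (1.94 to 2.84), or a log2 ratio of 0.59 after the correction. After the correction Klc1 and Klc2 had log2 ratios of -0.71 and -0.44, on the same side of 0 as Kif5b at -0.91 and Kif5c at -1.47. Summed as counted, the light chains had 171 CPM in p65-null and 176 CPM in wild-type cells, 1.02-fold lower with an interval (0.974 to 1.08) that spans no difference. Among the 18 measured light chains, adaptors and cargo links the median log2 ratio was 0.07 with 8 below 0 as counted, and -0.16 with 12 below 0 after the correction. The medians of all measured genes were -0.03 as counted, with 51.2% below 0, and -0.09 after the correction. The kinesin-1 adaptor gene Fez1 was 4.18-fold lower (3.51 to 4.99), at 10.1 and 42.2 CPM, and the JNK scaffold gene Mapk8ip1, whose protein binds the light chains, 2.03-fold higher (1.81 to 2.27). After the correction they had log2 ratios of -2.25 and 0.54.

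Kinesin-2, the motor that builds cilia and carries other cargo, showed small differences in the opposite direction. Kif3a had 28.0 CPM in p65-null and 25.1 CPM in wild-type cells, Kif3b had 35.5 and 32.6 CPM, and Kif3c had 66.4 and 53.3 CPM. The intervals of the log2 ratio included 0 for Kif3a (0.16, -0.03 to 0.34) and Kif3b (0.13, -0.04 to 0.29) and not for Kif3c (0.32, 0.19 to 0.44). Summed, these motor subunits were 1.17-fold higher (1.10 to 1.24) in the p65-null library. Their accessory subunit Kifap3 had 49.8 and 32.6 CPM, a log2 ratio of 0.61 (0.46 to 0.76), and 1.05 after the correction. By the ribosomal protein scaling, Kif3a, Kif3b and Kif3c lay below 0. Exons of Kif3c overlap 1110002L01Rik on the other strand.

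Kinesin-3 motors carry vesicle precursors, endosomes and dense-core granules. The measured transport members lay within 2-fold of the wild-type library, on both sides of it. Kif1c, the most abundant transport kinesin, had 245 CPM in p65-null and 285 CPM in wild-type cells, a log2 ratio of -0.22 (-0.28 to -0.16). Kif1b had 49.5 and 66.7 CPM, a log2 ratio of -0.43 (-0.56 to -0.30). Kif13a, which takes cargo to recycling endosomes, had 42.5 and 30.8 CPM, a log2 ratio of 0.46 (0.31 to 0.62), and Kif13b had 21.9 and 18.2 CPM and 0.27, or -0.15 by the ribosomal protein scaling. Kif16b, a motor of early endosomes, had 17.2 CPM in p65-null and 18.2 CPM in wild-type cells, a log2 ratio of -0.08 with an interval (-0.31 to 0.15) that spans 0. After the correction Kif1c, Kif1b, Kif13a, Kif13b and Kif16b had log2 ratios of -0.39, -0.19, 0.36, 0.07 and 0.24. Kif16bos, from the strand opposite Kif16b, had 0.5 and 0 fragments, the first being a single mate of a read pair.

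The other kinesins were few and mixed, with 6 of 11 measured and a median log2 ratio of -0.25. Kif26b (chromosome 1, 178529125 to 178932857), a kinesin without motor activity that takes part in kidney development and Wnt5a signalling in the mouse, had 74.6 CPM in p65-null and 26.5 CPM in wild-type cells. It was 2.81-fold higher (2.54 to 3.12), on 1129.5 and 562 fragments, and 1.44 on the log2 scale after the correction. Kif7, the ciliary-tip regulator of Hedgehog signalling, had 23.0 and 14.7 CPM, a log2 ratio of 0.64 (0.42 to 0.86), or 0.25 after the correction. Kif2a, a microtubule depolymerase of neurons and spindles, had 15.0 CPM in p65-null and 27.3 CPM in wild-type cells, 1.82-fold lower (1.56 to 2.14), or 1.14-fold after the correction. Kif24, which limits cilium growth, had 9.57 and 12.8 CPM and a log2 ratio of -0.42, and the growth regulators of microtubule ends Kif21a and Kif21b had -0.33 and -0.16. Exons on the other strand overlap Kif2a (Dimt1), Kif7 (Ticrr) and Kif26b (Gm16564, not analysed here). Dimt1 had 16.4 CPM in p65-null and 26.8 CPM in wild-type cells, with an overlap of up to 765 bases. Ticrr had 36.7 and 34.4 CPM, with up to 51 bases.

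The remaining 7 motor genes lay under the expression minimum, with at most 22.5 fragments in a library. Kif1a, a neuronal kinesin-3, had 4.5 fragments in p65-null and 22 in wild-type cells. Kif6 had 22.5 and 8.5 fragments, and Kif9, known from motile cilia and flagella, had 12 and 3. Kif27 had 6 and 2 fragments, Kif17 had 4 and 1, Kif19a had 4 and 0, and Kif26a had 2 and 0. A count of 0 allows up to 3 fragments, or 0.142 CPM in the wild-type library, so levels this low do not show whether the gene was off.

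**Figure D3:**
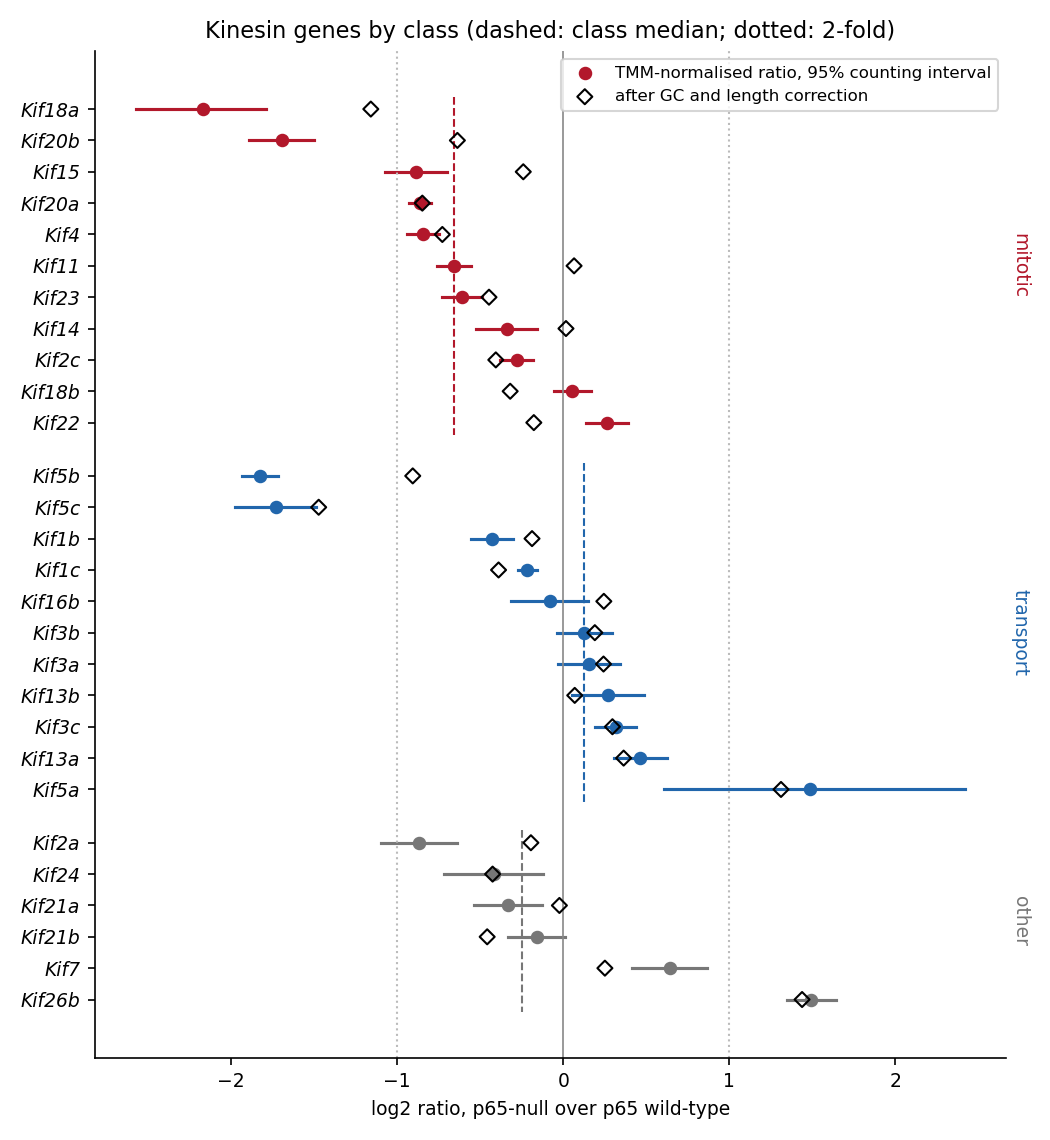
Log2 ratio, p65-null over wild-type, of the 28 measured kinesin genes with 95% counting intervals (points and bars), and after correction for GC content and length (diamonds). Dashed lines mark class medians, at -0.66 for mitotic, 0.13 for transport and -0.25 for other kinesins, and diamonds of Kif18a, Kif20b and Kif5b lie well to the right of their points.

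Set against each other, the mitotic class differed from the transport class by -0.78 in its median log2 ratio, a value that no rescaling of the libraries can move. With the means in place of the medians it was -0.60. The classes overlapped widely: Kif5b and Kif5c lay lower than every mitotic kinesin other than Kif18a, and Kif22 lay above the transport median. Members are not replicates, and the classes differ in transcript length, with medians of 3674 bases for mitotic and 6383 bases for transport kinesins.

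Ratios followed the GC content of the transcript. Across the 28 measured kinesins Spearman's correlation of the log2 ratio with GC content was 0.79, across all 12059 measured genes with a transcript sequence 0.43, all points coming from the same 2 libraries. Kif18a, Kif20b and Kif5b had 38.3%, 39.4% and 41.1% GC, and Kif22 and Kif18b had 53.7% and 55.2%, while the median of all measured genes was 50.5%. Mitotic kinesins had a median GC content of 46.5% and transport kinesins of 49.1%. A loess fit of the ratio on GC content and then on length was therefore subtracted from all genes. With that correction the classes differed by -0.60 in their medians, 1 mitotic kinesin (Kif18a) and 1 transport kinesin (Kif5c) were at least 2-fold lower, and the members at least 2-fold higher were Kif26b and Kif5a. Of all measured genes, 10.2% were then at least 2-fold lower and 10.4% at least 2-fold higher. Why the ratio follows GC content was not tested.

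**Figure D4:**
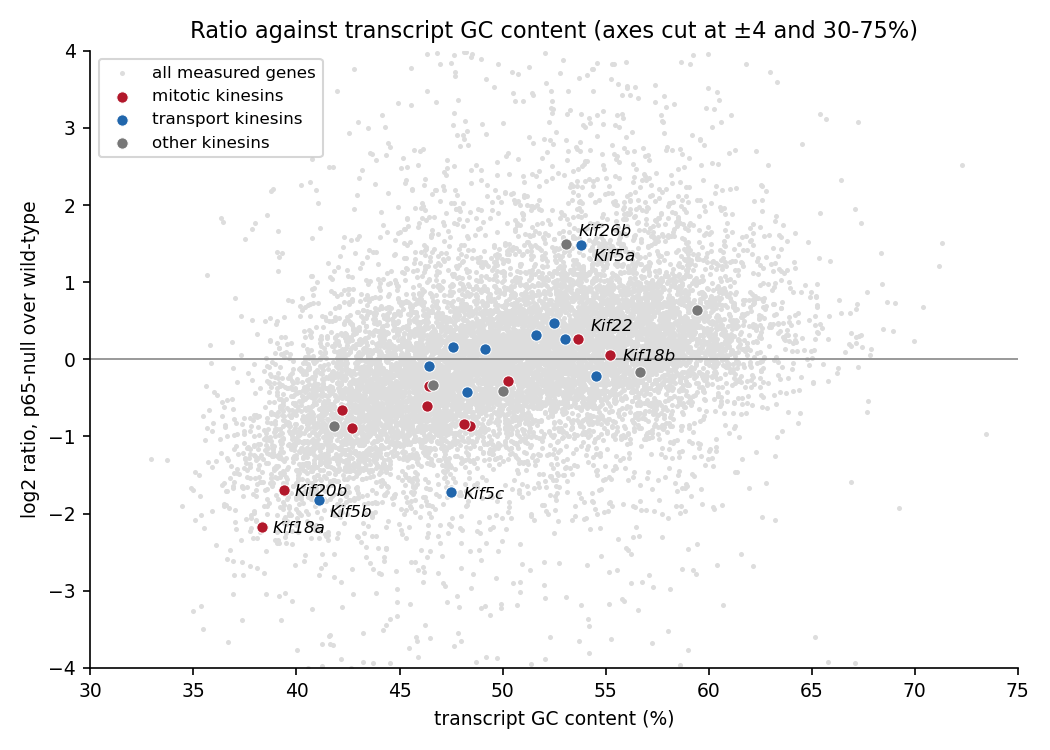
Log2 ratio, p65-null over wild-type, against transcript GC content in percent, for all measured genes (light grey, genes outside the axes not drawn) and for mitotic, transport and other kinesins (red, blue and dark grey). Kinesins of low GC content, Kif18a, Kif20b and Kif5b, lie at the lower left, where the cloud also falls. After the GC and length correction they still had log2 ratios of -1.16, -0.64 and -0.91. Kif5c at 47.5% GC lies below most genes of like GC content and Kif26b at 53.1% GC above most.

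Of 35 measured spindle and cytokinesis genes, also of the division machinery, 25 lay below 0, where 51.2% of all measured genes did. After the correction 23 lay below 0, when the median of all measured genes was -0.09. In p65-null cells 4 of them were at least 2-fold lower, 2 higher by as much and 29 in between, with a median log2 ratio of -0.25, or -0.20 after the correction. The lower ones included Sgo1, which protects centromeric cohesion, at 2.49-fold (2.18 to 2.85), the cytokinesis activator Ect2 at 2.29-fold (2.06 to 2.55) and the checkpoint kinase gene Bub1 at 2.14-fold (1.93 to 2.38), and all 3 were within 2-fold after the correction. The securin gene Pttg1 was 3.53-fold higher (3.06 to 4.07) and Spc24, of the kinetochore complex Ndc80, 2.03-fold higher (1.84 to 2.25). After the correction Pttg1 had a log2 ratio of 1.78 and Spc24 0.73, so that by 2-fold 1 gene, Cdca8, was lower and 1, Pttg1, higher. Over all measured genes, 13.7% were at least 2-fold lower and 12.2% at least 2-fold higher, or 10.2% and 10.4% after the correction. Mki67, a common marker of proliferating cells, had 297 CPM in p65-null and 398 CPM in wild-type cells, a log2 ratio of -0.42 (-0.48 to -0.37) and -0.06 after the correction. Racgap1, the partner of Kif23 in centralspindlin, had 225 and 227 CPM, and Prc1, the partner of Kif4 at the central spindle, 127 and 138 CPM.

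Regulators of mitotic genes had 2 of 16 measured members at least 2-fold lower, 0 higher and a median log2 ratio of -0.32. Over all measured genes, 13.7% were at least 2-fold lower and 12.2% at least 2-fold higher, or 10.2% and 10.4% after the correction. Lin54, the MuvB subunit that reads the CHR, was 3.52-fold lower (3.02 to 4.13), at 12.9 CPM in p65-null and 45.4 CPM in wild-type cells, and -0.97 on the log2 scale after the correction. Lin9, another MuvB subunit, had 11.7 and 23.6 CPM and was 2.01-fold lower, or -0.40 on the log2 scale after the correction, when 1 other regulator, E2f2, was at least 2-fold lower. Foxm1 had 94.5 and 130 CPM, a log2 ratio of -0.46 (-0.55 to -0.37), and Mybl2 had 61.9 and 74.8 CPM and -0.27 (-0.39 to -0.16). DNA replication genes had 1 of 32 members at least 2-fold lower, the S-phase cyclin gene Ccne2 at 2.76-fold (2.31 to 3.32), 0 higher and a median of 0.11. After the correction Ccne2 had a log2 ratio of -0.29, 0 were lower and the median was 0.06.

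On the transport side, dynein and dynactin genes, which serve travel towards microtubule minus ends, had 1 of 20 measured members at least 2-fold lower, the light chain Dynlt3 at 2.22-fold (1.90 to 2.61), 0 higher and a median log2 ratio of 0.05. After the correction Dynlt3 had -0.27, 0 were lower, 1 was higher (Actr10) and the median was -0.12. Over all measured genes, 13.7% were at least 2-fold lower and 12.2% at least 2-fold higher, or 10.2% and 10.4% after the correction. Intraflagellar transport genes, whose products travel with kinesin-2 into the cilium or, as dynein-2 subunits, bring cargo back, were mostly higher: 18 of 23 lay above 0, where 48.8% of all measured genes did, with a median of 0.64 and 0.67 after the correction. The median was 0.22 when scaled to ribosomal protein genes. At least 2-fold higher were 3, Dync2li1 at 3.20-fold (2.63 to 3.92), Ift140 at 2.27-fold (2.0 to 2.58) and Ift122 at 2.26-fold (2.0 to 2.55), and 1, Ift74, was 2.04-fold lower (1.70 to 2.46). After the correction 5 were higher (Dync2li1, Ttc30a1, Wdr35, Ttc26 and Ttc30b) and 0 lower, with Ift74 at -0.41, Ift140 at 0.95 and Ift122 at 0.94 on the log2 scale. In the Hedgehog pathway, which Kif7 regulates, the 2-fold mark on the higher side was passed by 4 of 11 measured genes, against 12.2% of all measured genes. Among them were Gas1 at 5.71-fold (5.30 to 6.15), Boc at 3.10-fold (2.78 to 3.45) and Gli2 at 3.0-fold (2.60 to 3.46). The median log2 ratio of the pathway was 0.43, with 3 genes below 0. After the correction it was 0.37, with 5 below 0 and 4 at least 2-fold higher. Scaled to ribosomal protein genes, the median was 0.006. Hhip had 0 fragments in p65-null and 75.5 in wild-type cells, a log2 ratio of at most -4.17 at a floor of 3 fragments in the p65-null library.

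**Figure D5:**
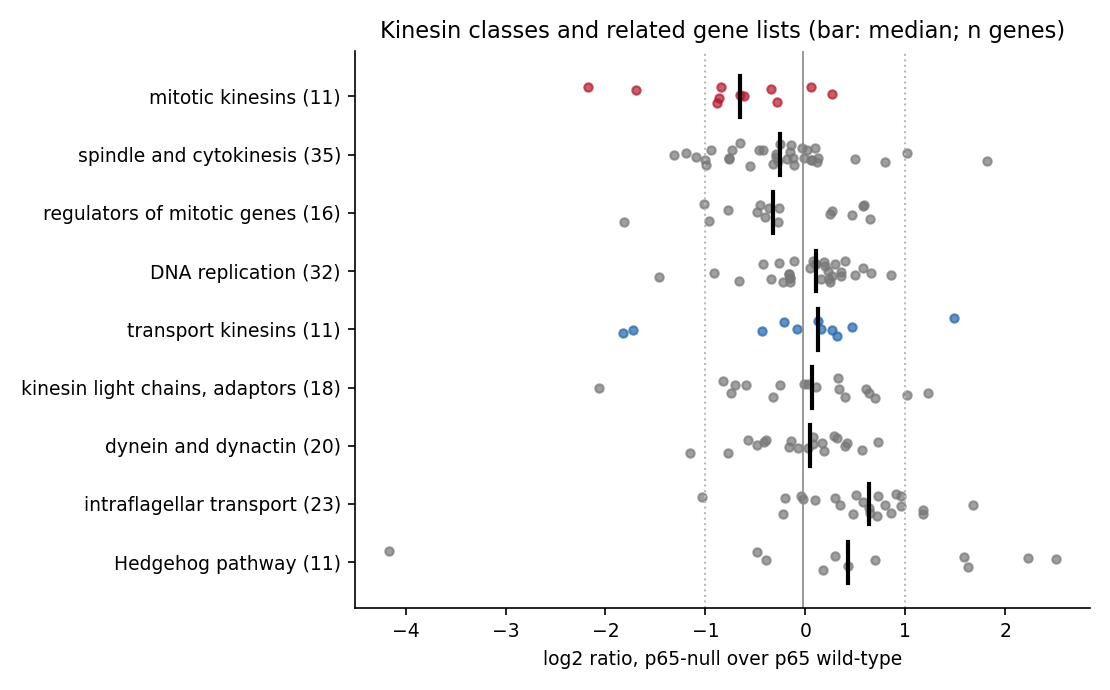
Log2 ratios, p65-null over wild-type, of the measured members of both kinesin classes and of related gene lists (points) with medians (bars) and the median of all measured genes (grey line). Medians run from -0.66 for mitotic kinesins to 0.64 for intraflagellar transport genes, with broad overlap between the lists. The lowest Hedgehog point, Hhip, is drawn at its bound of -4.17.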

How the data were processed

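Total RNA had been sequenced on an Illumina HiSeq, per the labels. Tools named in the submitters' processing notes are HOMER, edgeR, STAR 2.4 and bcl2fastq 2.16, with the build mm10 and no roles. Counting rule, strand use and annotation were unknown. The deposited values are a scaled signal per RefSeq transcript, not whole counts: both columns sum to 18117930 (p65-null) and 18117934 (wild-type). Every low value checked was a whole multiple of 1 step, 0.587 in the p65-null and 0.436 in the wild-type column (100% of 13863 and 12542 values, tolerance 0.0055). Even multiples made up 75.7% and 72.8% of values of 1 to 20 steps, so 2 steps were taken as 1 fragment, and fragments ending in 0.5 are single mates. With 1 library per genotype a count test has no residual degrees of freedom, so none was run.

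Symbols came from a RefSeq table of GRCm38.p6 (16743 matched) and GENCODE M21 (83), with 55 unmatched. TMM factors (edgeR 4.0.16, R 4.3.3) were 0.981 for p65-null and 1.02 for wild-type. Intervals are exact Clopper-Pearson intervals on fragments and cover counting error only, since fragments are not tagged molecules. The interval calculation was tested on simulated counts with known ratios and counting error only. That test did not cover the scaling factors or the GC and length correction. Length and GC content came from the matched GENCODE transcript, and loess had a span of 0.3. The members, classes and lists were chosen with earlier results of these data known. The text names every kinesin found. From other lists it names up to 3 members 2-fold higher and 3 lower by the interval end nearest 0, with Cenpe, Kifc1, Foxm1, Mybl2 and Mki67. Racgap1, Prc1, Kifap3, genes past 2-fold only after the correction, the light chains, Xist, Kdm5d, Cdkn2a and markers were named after their values were seen. Alternatives were other scalings (DESeq2 1.42.0 size factors, total fragments, upper quartile, ribosomal protein genes), other expression minimums, a prior count of 2, the whole interval past 2-fold, means and the GC and length correction.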

Additional observations from a re-analysis of the deposited data

How the results depend on the processing

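The class medians and the mitotic minus transport difference kept their side of 0 in the alternatives run, except that the transport median was -0.29 when libraries were scaled to ribosomal protein genes, the transport mean was -0.13, and other kinesins had a mean of 0.06 and, with no expression minimum, a median of 0.77. The difference ran from -0.78 to -0.60. Scaling to ribosomal protein genes moved all log2 ratios by -0.42 and put 10 kinesins at least 2-fold lower, when 25.3% of all measured genes were, and upper quartile scaling moved them by 0.11. The GC and length correction left 2 kinesins at least 2-fold lower. The count at least 2-fold higher was 6 with no expression minimum, since Kif6, Kif9, Kif17 and Kif27 came in on few fragments, 1 with a minimum of 5 CPM, which drops Kif5a, and 1 with the whole interval past 2-fold. Directions of single kinesins turned for 6 of 28 under ribosomal protein scaling, 5 under the GC and length correction, 1 each under total fragments and upper quartile scaling, and 0 under DESeq2 size factors. Depth limits the values of Kif5a, on 17 wild-type fragments, and of the 7 motor genes under the expression minimum. No paired analysis was possible because each genotype has 1 library.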
